A study of Mus musculus with 8 samples.

Results

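Expression of 9 Hedgehog pathway genes was examined in cells sorted from the second heart field (SHF) of mouse embryos at embryonic day 9.5. The 9 genes were chosen by name and comprised the ligand gene Shh, the receptor and antagonist genes Ptch1 and Hhip, the transcription factor genes Gli1, Gli2 and Gli3, and the co-receptor genes Boc, Cdon and Gas1. All 9 were among the 16302 genes of the table. The SHF is a population of cardiac progenitors from which the heart tube lengthens at its arterial and venous ends. Cells were taken from Hoxb1GFP embryos, in which a green fluorescent protein placed at the Hoxb1 locus marks cells that use Hoxb1, a gene of the posterior SHF (pSHF). They were also taken from Mef2c-Cre;Rosa-tdT embryos, in which an anterior heart field enhancer of Mef2c drives Cre recombinase, and Cre permanently activates tdTomato, a red protein, in these cells and what derives from them. There were 3 libraries of GFP-positive cells (GFP+) and 3 of Tomato-positive cells (Tomato+). Cells without reporter gave 1 library in each line (GFP- and Tomato-). The groups therefore differed in line as well as in cell type, and the reporter in the Tomato line records past as well as present use of the enhancer. The methods of the study appear to give the GFP allele the symbol Hoxb1-, which also names its Hoxb1 mutants, and whether the embryos carried 1 or more copies is not given in the sources used here. Embryos of each genotype were pooled before sorting, and the study calls its RNA-seq libraries biological replicates, but the sources do not say how pools map to libraries. P-values measure no more than the spread among these libraries, part of which may be technical.

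Hedgehog ligands are secreted proteins that bind the membrane receptor Ptch1 and thereby release Smoothened, a membrane protein that Ptch1 otherwise holds inactive. Active Smoothened changes the processing of Gli2 and Gli3, so that less repressor and more activator reaches the nucleus, and Gli1, Ptch1 and Hhip are themselves direct targets that rise where the pathway is active. In the embryonic heart field, Shh from the pharyngeal and foregut endoderm signals to the neighbouring SHF mesoderm, and loss of this signal impairs septation of the atria and of the outflow tract.

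The 8 libraries held 22668185 to 41597870 reads, of which 30.6% to 49.3% came from mitochondrial ribosomal RNA. Values below are normalized reads, obtained from reads by the size factor of the library. In both positive groups replicates 1 and 3 were close to one another, with a chi-square per degree of freedom of 2.35 in GFP+ and 2.38 in Tomato+ cells, against 72.4 to 93.0 for every pair with replicate 2. They exceeded sampling noise and were kept as separate libraries, and calls that were lost once they were averaged are given with each gene. Of 12 measured SHF genes all 12 were higher in GFP+ cells, beside 19.7% of all genes tested. Hoxb1, whose reporter was used to sort the GFP+ cells, is among them. So are Tbx5, Osr1, Foxf1, Wnt2 and Gata4, which the study names for the GFP+ population from these data. The count is therefore a description of the sorted cells. Summed levels of the list were 13312 to 14854 in GFP+, 4907 to 4955 in Tomato+, 2331 in GFP- and 3798 in Tomato- cells. The Tomato+ libraries also held erythroid markers, summed to 113620 to 138151 against 931 to 1362 in GFP+, and markers of neurons and neural tube, summed to 27859 to 29217 against 6477 to 6820.

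Shh, which encodes the ligand (chr5:28456815-28467256 on GRCm38), differed most between the positive populations among the 9 genes. It stood at 1281, 1548 and 1332 normalized reads in GFP+ cells and at 47.3, 32.6 and 46.0 in Tomato+ cells. Every GFP+ library was far above every Tomato+ library, and the Tomato+ values rested on only 23 to 64 reads, which is above the 3 reads below which a gene would be taken as not detected. The means of 1387 ± 141 and 42.0 ± 8.18 (SD, n = 3 each) gave a log2 fold change of 5.03 (SE 0.21), or 32.6-fold (limma across all genes, adjusted p = 5.43e-06). In RNA from whole populations, fewer cells of a type and less RNA per cell cannot be told apart. Of 11 measured markers of pharyngeal and foregut endoderm, the tissue known to secrete Shh beside the SHF, 6 were higher in GFP+ cells and 2 were lower, namely Sox2 (401 to 432 against 996 to 1090 in Tomato+ cells) and Pax1 (312 to 380 against 631 to 992). Their summed level was 6389 to 7493 in GFP+, 2708 to 3156 in Tomato+, 2151 in GFP- and 2898 in Tomato- cells. Cldn6, an epithelial junction gene on that list, stood at 4179, 3294 and 4309 in GFP+ cells and at 170 to 267 in Tomato+ cells. Most of the gap in the sum rested on it, as the other 10 markers summed to 3094 to 3216 in GFP+ and 2459 to 2986 in Tomato+ cells, a sum taken after the values of Cldn6 were seen. Those 10 include Sox2 and Pax1, which were lower in GFP+ cells. Foxa2, a gene of endoderm and floor plate, was low but called higher, at 40.6 to 60.0 in GFP+ and 2.73 to 4.32 in Tomato+ cells. Also called higher were Foxa1 (203 to 218 against 32.4 to 66.5) and Cdh1 (818 to 1047 against 134 to 278). The same held for Epcam (695 to 792 against 255 to 368) and Prss8 (88.5 to 117 against 0 to 22.8). The remaining 3 markers were not called. Of 4 measured markers of notochord and floor plate, Foxa2 among them, 2 were higher in GFP+ cells and none was lower. These summed to 2550 to 2898 in GFP+, 1848 to 2054 in Tomato+, 4207 in GFP- and 2073 in Tomato- cells. Of 7 measured markers of posterior limb bud, 2 were higher and 4 lower in GFP+ cells. The part of endodermal cells, or of these other tissues, in the Shh level was not tested. The library preparation kept no strand, and exons of the opposite-strand genes 9530036O11Rik and Gm26894 cover 15.7% and 12.7% of the exon length of Shh, so reads of these transcripts cannot be told apart there.

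Among the direct targets, Ptch1, the Hedgehog receptor (chr13:63508328-63573598), was higher in GFP+ cells. Its values were 13621, 12323 and 13401 in GFP+ and 7068, 7078 and 6844 in Tomato+ cells. The lowest GFP+ library was well above the highest Tomato+ library, and the spread within each group was small. Ptch1 was 1.87-fold higher, a log2 fold change of 0.91 (SE 0.07; limma, adjusted p = 6.93e-05).

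Hhip, a membrane-bound antagonist that sequesters Hedgehog ligands (chr8:79965851-80058006), was the least abundant of the targets per exon length. It stood at 597, 711 and 584 in GFP+ cells and at 350, 259 and 306 in Tomato+ cells, without overlap. The log2 fold change was 1.05 (SE 0.17), or 2.07-fold (limma, adjusted p = 0.00207).

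Gli1, an activator that depends on Hedgehog signalling for its own expression (chr10:127329882-127341974), gave the least even replicates. It stood at 740, 577 and 701 in GFP+ cells and at 269, 518 and 257 in Tomato+ cells. Tomato+ replicate 2 came close to the lowest GFP+ library, whereas the other Tomato+ libraries were well below. Over all 6 libraries Gli1 was 2.03-fold higher in GFP+ cells (log2 fold change 1.02, SE 0.27, 95% interval 0.39 to 1.65; limma, adjusted p = 0.0205). This call did not hold when replicates 1 and 3 were averaged (0.80; limma, adjusted p = 0.104), nor without GFP+ replicate 1, GFP+ replicate 3, Tomato+ replicate 1 or Tomato+ replicate 3 (limma, adjusted p = 0.0628 to 0.0676). Without Tomato+ replicate 2 the log2 fold change was 1.34 (limma, adjusted p = 0.00131). The same library was high for Dhh, a ligand gene of the family of Shh, at 190 against 0 and 2.16 in the other Tomato+ libraries. Ptch1 and Hhip did not follow, as this library had 7078 normalized reads of Ptch1 against 7068 and 6844, and the lowest Hhip value of its group. Dhh was singled out after its values were seen. Mitochondrial ribosomal RNA took 41.7% of the reads of Tomato+ replicate 2, the highest share among the positive libraries, and its part in these values was not tested.

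Of the factors that carry the signal, Gli2, the main activator (chr1:118834132-119053619), was at similar levels in both populations. It stood at 2101, 1954 and 2001 in GFP+ cells and at 1940, 1645 and 1862 in Tomato+ cells. The groups were adjacent without overlapping, and the difference did not pass the test (log2 fold change 0.16, 95% interval -0.06 to 0.37; limma, adjusted p = 0.225).

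Gli3, the main repressor (chr13:15463235-15730026), also differed little. Its values were 6709, 7187 and 6780 in GFP+ and 6206, 5395 and 6135 in Tomato+ cells. The difference missed the threshold (log2 fold change 0.22, 95% interval 0.04 to 0.41; limma, adjusted p = 0.0576), and DESeq2 on the recovered reads called it (adjusted p = 0.0405). For both genes the interval leaves out a difference of 2-fold in either direction.

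**Figure D1:**
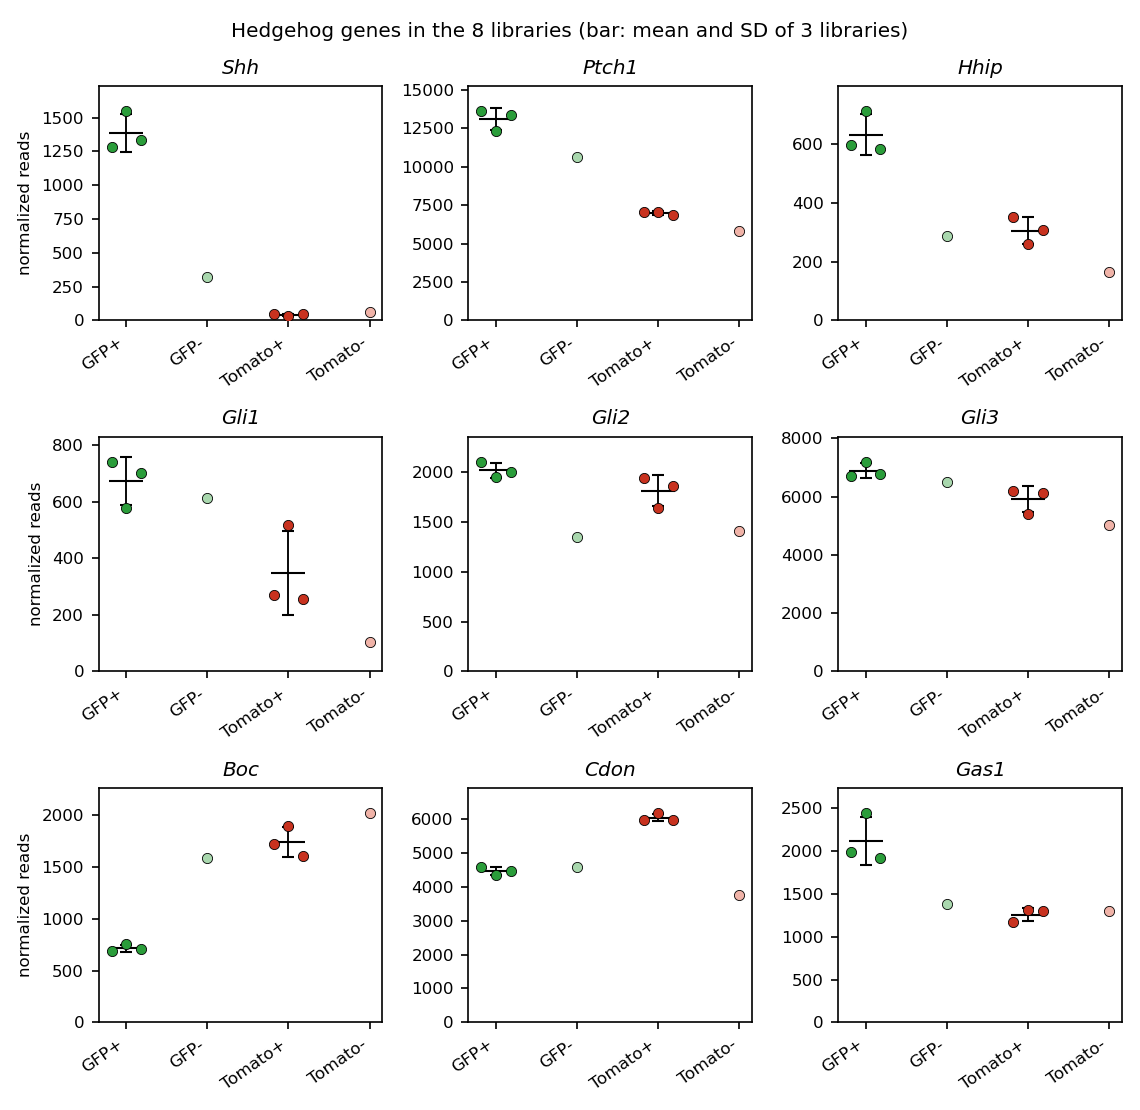
Normalized reads (vertical axis, from 0) of the 9 Hedgehog genes in GFP+, GFP-, Tomato+ and Tomato- cells (horizontal axis), with 1 point per library and a bar for the mean and SD of 3 libraries. Shh stands at 1281 to 1548 in GFP+ and at 32.6 to 47.3 in Tomato+ cells, Boc and Cdon are higher in Tomato+ cells, and Tomato+ replicate 2 stands apart for Gli1 at 518.

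The 3 co-receptors, which bind Hedgehog ligands together with Ptch1 and promote reception of the signal, did not move together. Boc, an immunoglobulin-family membrane protein (chr16:44485049-44558897), was lower in GFP+ cells, at 687, 752 and 707 against 1721, 1891 and 1602 in Tomato+ cells. Its groups were widely separated, and Boc was 2.42-fold higher in Tomato+ cells (log2 fold change of GFP+ over Tomato+ -1.28, SE 0.11; limma, adjusted p = 0.000106).

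Cdon, a relative of Boc (chr9:35421128-35507652), shared this direction with a smaller step. It stood at 4575, 4329 and 4470 in GFP+ cells and at 5971, 6164 and 5961 in Tomato+ cells. Replicates were tight, and Cdon was 1.35-fold higher in Tomato+ cells (log2 fold change -0.44; limma, adjusted p = 0.00177). The call was lost with replicates 1 and 3 averaged (-0.45; limma, adjusted p = 0.0566).

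Gas1, a co-receptor anchored to the membrane by a lipid (chr13:60174405-60177365), went the other way. It stood at 1988, 2444 and 1925 in GFP+ cells and at 1171, 1310 and 1295 in Tomato+ cells, with GFP+ replicate 2 the highest. Gas1 was 1.68-fold higher in GFP+ cells (log2 fold change 0.74, SE 0.12; limma, adjusted p = 0.00203). Exons of the opposite-strand gene Gm48488 cover 19.9% of its exon length, and reads of these genes cannot be told apart there. Of 13 measured markers of neurons and neural tube, a tissue in which Boc and Cdon are known to be expressed, 11 were lower in GFP+ cells and none was higher. The summed neural level was 14728 in GFP- and 23768 in Tomato- cells, where Boc stood at 1583 and 2016. Cdon stood at 4564 in GFP- cells, within the GFP+ range, and at 3754 in Tomato- cells, below all other libraries. The part of neural cells in the Boc and Cdon levels was not tested.

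Thus 5 of the 9 genes rose in GFP+ relative to Tomato+ cells, 2 fell and 2 passed in neither direction. Across the 16153 genes tested 39.7% were called, 19.7% as higher and 20% as lower in GFP+ cells. The 2 lower genes are 22.2% of the list, near that background, and the 5 higher genes are 55.6%. The median log2 fold change was 0.74 over the 9 genes and -0.01 over all genes. When libraries were scaled without mitochondrial genes, the median of all genes shifted by -0.13 and the split of calls went from 3186 higher and 3224 lower to 2379 and 4006. The 9 genes kept their directions, with Gli2 at 0.02 and Gli3 at 0.09.

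**Figure D2:**
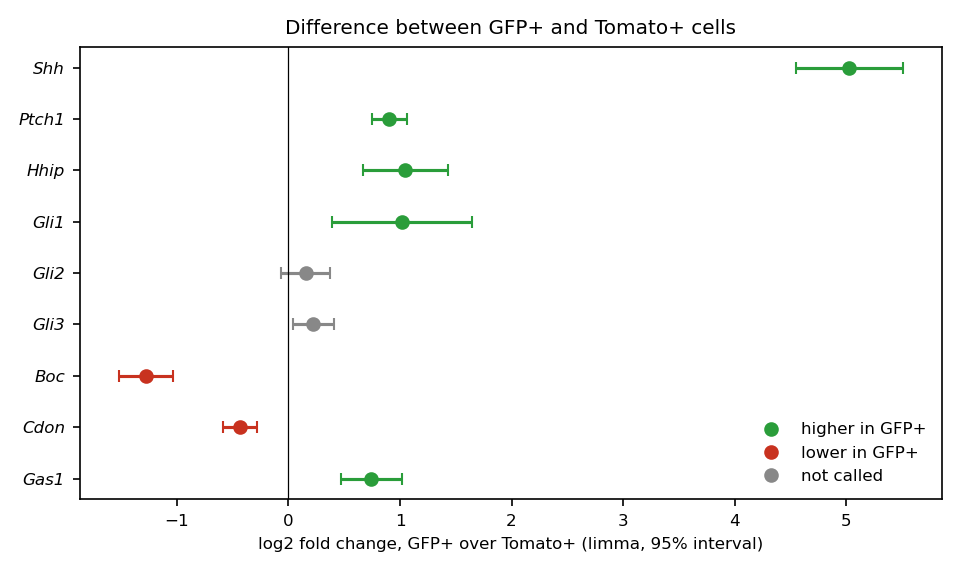
Log2 fold change of GFP+ over Tomato+ cells (horizontal axis) for each Hedgehog gene (vertical axis) from limma, with its 95% interval. Shh lies at 5.03, Ptch1, Hhip, Gli1 and Gas1 between 0.74 and 1.05, Gli2 and Gli3 near 0, and Cdon and Boc at -0.44 and -1.28.

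Levels of different genes were compared per kilobase of exon. In GFP+ cells Ptch1 was the most abundant at 925 normalized reads per kb, followed by Gli3 at 719, Gas1 at 716, Cdon at 578 and Shh at 487. Gli2 at 294, Boc at 161, Gli1 at 135 and Hhip at 69.5 per kb came below. Gli3 and Gas1 overlapped in their libraries, and no other neighbours in this order did. In Tomato+ cells Cdon led at 782 per kb, before Gli3 at 617, Ptch1 at 493, Gas1 at 425 and Boc at 391. Gli2 followed at 264, Gli1 at 69.7, Hhip at 33.6 and Shh, the last, at 14.7 per kb. Gas1 and Boc overlapped there, and no other neighbours did. The leading gene thus changed from Ptch1 to Cdon between the populations, and the ligand moved from the fifth place to the last. In GFP- cells Ptch1 at 750 and Gli3 at 678 per kb led and Hhip was last at 31.6. In Tomato- cells Gli3 at 526 and Cdon at 487 led, Shh at 22.8 and Gli1 at 20.9 were near the bottom, and Hhip was again last.

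**Figure D3:**
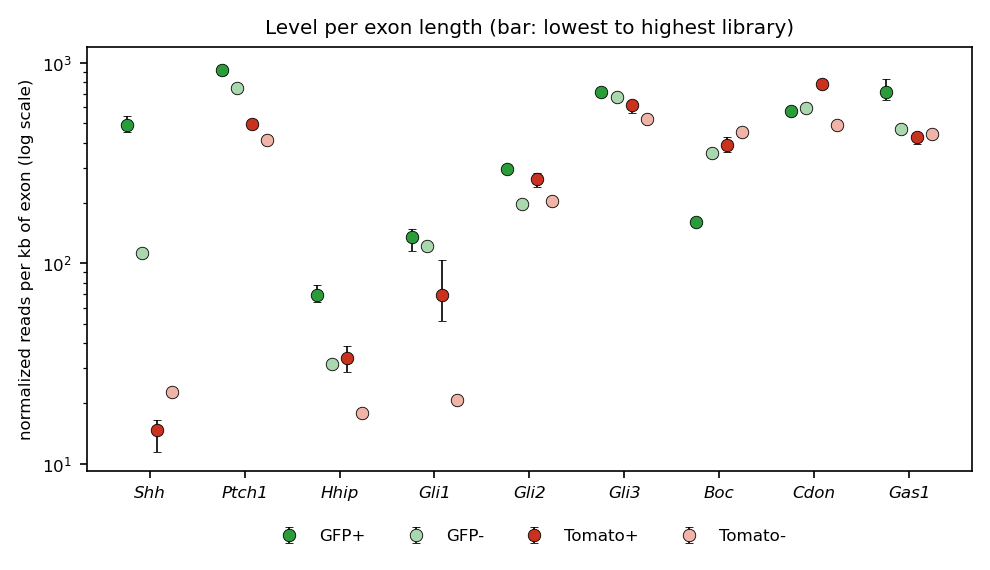
Level per kilobase of exon (vertical axis, log scale) of the 9 Hedgehog genes (horizontal axis) in the 4 groups, with points for group means and bars from the lowest to the highest library (single libraries have no bar). Shh spans 14.7 to 487 per kb between Tomato+ and GFP+ cells, whereas Gli2 and Gli3 stay within a narrow band.

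Ratios of 2 genes within a library do not depend on the scaling of that library. The 8 ratios examined were tested with an exact two-sided permutation test over 3 against 3 libraries, which cannot go below p = 0.1. The log2 ratio of Boc to Gas1 was -1.53, -1.70 and -1.44 in GFP+ cells and 0.55, 0.53 and 0.31 in Tomato+ cells. Gas1 therefore had more reads than Boc in each GFP+ library and fewer in each Tomato+ library, a difference of -2.02 (exact permutation p = 0.1, adjusted p = 0.2). The difference of GFP+ minus Tomato+ cells was -1.18 for Cdon to Gas1 and -0.84 for Boc to Cdon, each without overlap (exact permutation p = 0.1, adjusted p = 0.2). Shh to Ptch1 differed by 4.12, from a mean of -3.24 in GFP+ to -7.37 in Tomato+ cells (exact permutation p = 0.1, adjusted p = 0.2). The targets, in contrast, had overlapping ratios to one another, for Gli1 to Ptch1 only through Tomato+ replicate 2. Gli1 to Ptch1 was -4.20, -4.41 and -4.25 in GFP+ and -4.71, -3.77 and -4.73 in Tomato+ cells. The difference was 0.11 (exact permutation p = 0.8, adjusted p = 0.8). It turned to -0.076 with replicates 1 and 3 averaged and to -0.039 and -0.051 without Tomato+ replicate 1 or 3. Without Tomato+ replicate 2 it was 0.43, with no overlap left (exact permutation p = 0.1). This ratio thus depended on single libraries. Hhip to Ptch1 differed by 0.14 (exact permutation p = 0.6, adjusted p = 0.686) and Gli2 to Gli3 by -0.07 (exact permutation p = 0.4, adjusted p = 0.533). Gli1 to Gli3, the activator target against the repressor, differed by 0.80 (exact permutation p = 0.2, adjusted p = 0.32).

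**Figure D4:**
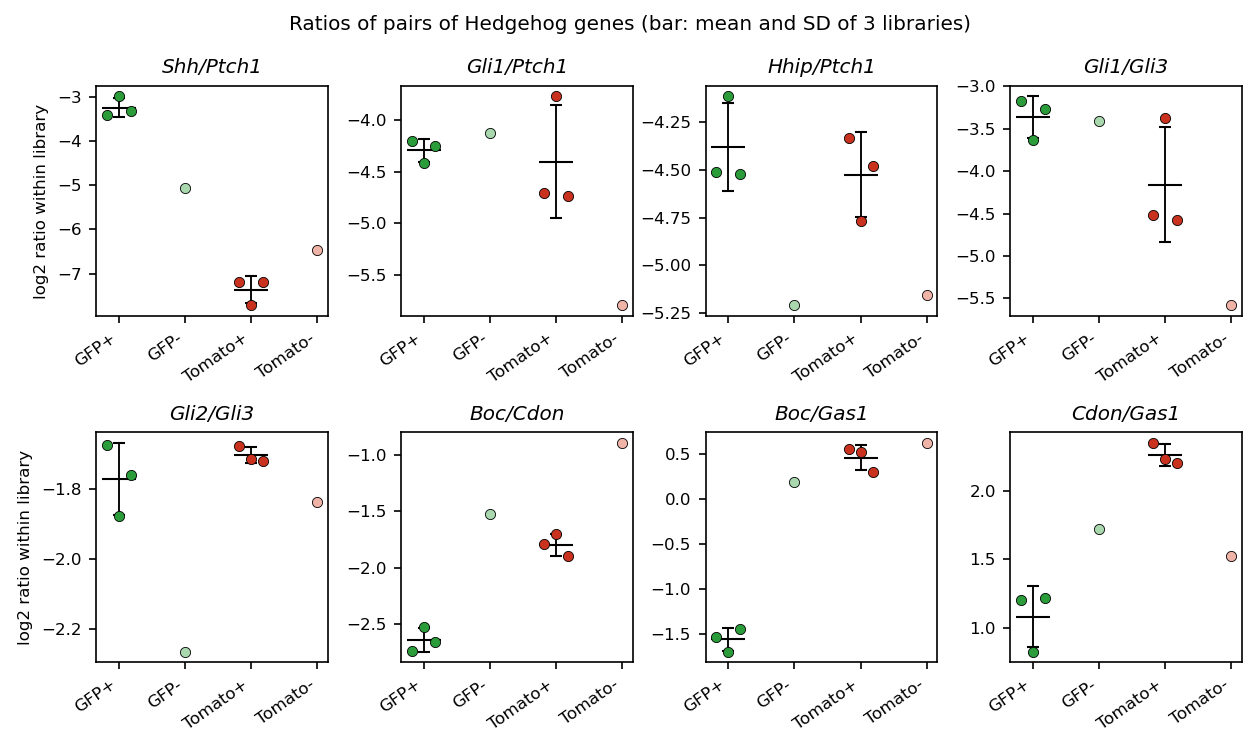
Log2 ratio of normalized reads of 2 Hedgehog genes within each library (vertical axis, separate range per panel) in the 4 groups (horizontal axis), with 1 point per library and a bar for the mean and SD of 3 libraries. The co-receptor ratios Boc/Cdon, Boc/Gas1 and Cdon/Gas1 and the ratio Shh/Ptch1 do not overlap between GFP+ and Tomato+ cells. The other 4 ratios do, those of Gli1 only through Tomato+ replicate 2.

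Each positive population was then set against the cells without reporter of its own line, with no test since each line had 1 such library. A gene was taken to stand apart when its level in the negative cells was 2-fold or more beyond that of all positive libraries. In the GFP line Shh and Hhip stood apart as higher and Boc as lower in GFP+ cells, against a background of 5.2% higher and 4.07% lower among all genes examined. When libraries were scaled without mitochondrial genes, Hhip no longer stood apart. Shh was at 319 in GFP- cells (95% Poisson interval 287 to 353, for counting error only), 4.02-fold below the lowest GFP+ library. Hhip was at 287 in GFP- cells and Boc at 1583, the latter 2.10-fold above the highest GFP+ library. Ptch1 at 10645, Gli2 at 1352, Gli3 at 6503 and Gas1 at 1384 in GFP- cells lay below every GFP+ library by less than 2-fold. Gli1 at 612 and Cdon at 4564 lay within the GFP+ range. The GFP- library thus held nearly as much Ptch1 and Gli1 as GFP+ cells, with 1.23-fold and 1.10-fold higher means in GFP+.

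In the Tomato line Gli1 was the only gene of the 9 that stood apart, as higher in Tomato+ cells, against a background of 9.75% higher and 7.04% lower. It was at 104 in Tomato- cells, 2.46-fold below the lowest Tomato+ library. Shh was at 64.9 in Tomato- cells, above every Tomato+ library, and its Poisson interval of 47.0 to 87.5 reached down to the highest of them at 47.3. Ptch1 at 5838, Hhip at 163, Gli2 at 1409, Gli3 at 5041 and Cdon at 3754 lay below every Tomato+ library by less than 2-fold. Boc at 2016 lay above every Tomato+ library, and Gas1 at 1306 lay within their range. With a 3-fold limit, Shh in the GFP line was the only gene left in either line.

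The 5′ flanks of 3 genes are shown, those of the targets Ptch1 and Hhip, which were higher in GFP+ cells, and that of Gli2, which was not called. Of the 9 genes 6 had a RefSeq window on GRCm38.p6, Ptch1, Hhip, Gli2, Gli3, Cdon and Gas1. Shh, Gli1 and Boc had none. Each sequence is the 250 bases before the RefSeq start on the minus strand, written 5′ to 3′, at chr13:63565736-63565985 for Ptch1, chr8:80058009-80058258 for Hhip and chr1:119053620-119053869 for Gli2. Capitals mark matches to the inner letters of the Gli binding site (CCACCC, or GGGTGG on the other strand) and to the longer core that contains them (ACCACCC or GGGTGGT).
Ptch1: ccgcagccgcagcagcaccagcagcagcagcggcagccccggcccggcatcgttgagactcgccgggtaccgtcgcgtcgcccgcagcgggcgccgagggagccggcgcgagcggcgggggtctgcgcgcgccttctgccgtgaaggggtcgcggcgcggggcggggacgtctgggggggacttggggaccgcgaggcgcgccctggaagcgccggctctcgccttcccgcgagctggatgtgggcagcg
Hhip: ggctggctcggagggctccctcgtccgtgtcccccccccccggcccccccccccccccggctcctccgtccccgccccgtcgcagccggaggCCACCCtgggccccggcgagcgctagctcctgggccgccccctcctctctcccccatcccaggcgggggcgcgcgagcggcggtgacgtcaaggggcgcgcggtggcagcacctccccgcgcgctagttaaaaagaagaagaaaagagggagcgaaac
Gli2: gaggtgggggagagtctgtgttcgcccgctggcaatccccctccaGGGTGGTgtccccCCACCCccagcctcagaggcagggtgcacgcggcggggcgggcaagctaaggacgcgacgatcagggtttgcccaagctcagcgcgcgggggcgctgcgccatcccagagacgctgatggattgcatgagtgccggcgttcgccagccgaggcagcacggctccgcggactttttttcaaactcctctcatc
The Ptch1 start used by RefSeq lies inside the longer GENCODE gene. The full Gli consensus GACCACCCA, searched on both strands, was in none of the 6 windows and in 0.225% of 32851 windows of the same length. The core ACCACCC was in the Gli2 window at -205 to -199, and in 3.92% of all windows. The inner letters were in the Hhip window at -158 to -153, in the Gli2 window at 2 places, 1 of them inside the core match, and once in the Gli3 window, and in 28.1% of all windows. The Ptch1 window, with 78.4% G and C, held none of these letters. A match in so short a window is a description and not a binding site.

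The wider pathway was read from a list of 49 other Hedgehog genes, of which 44 were measured. GFP+ cells had 16 of these higher and 6 lower, while 22 were not called, with a median log2 fold change of 0.18. The higher genes are 36.4% and the lower genes 13.6% of the 44, beside 19.7% and 20% of all genes tested. With replicates 1 and 3 averaged, 11 were higher and 3 lower, and with scaling without mitochondrial genes 13 were higher and 8 lower. Among ligands and proteins that release them, 1 of 6 was higher and 1 lower. Scube2, which helps release lipid-modified Hedgehog from the cell, stood at 1243, 989 and 1308 in GFP+ and 574, 663 and 580 in Tomato+ cells (log2 fold change 0.95; limma, adjusted p = 0.00147). Scube1, its relative, went the other way, at 2299 to 2310 in GFP+ and 3534 to 4210 in Tomato+ cells (log2 fold change -0.72; limma, adjusted p = 0.000704). Of 5 receptors and transducers, 2 were higher and 1 was lower. Smo, the gene of Smoothened, stood at 4869, 4469 and 4951 in GFP+ and 2903, 3153 and 2866 in Tomato+ cells (log2 fold change 0.68; limma, adjusted p = 0.000555). Lrp2, an endocytic receptor that binds Shh, stood at 1253 to 1763 in GFP+ and 726 to 731 in Tomato+ cells (log2 fold change 1.08; limma, adjusted p = 0.000866).

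Of the 17 measured cytoplasmic regulators of Gli, 4 were higher and 4 lower (23.5% each), near the 19.7% and 20% of all genes tested. Prkaca, a catalytic subunit of protein kinase A, which promotes formation of Gli repressor, stood at 2174 to 2543 in GFP+ and 885 to 1094 in Tomato+ cells (log2 fold change 1.26; limma, adjusted p = 0.000151). Stk36, a kinase gene related to fly fused, stood at 117 to 201 in GFP+ and 321 to 324 in Tomato+ cells (log2 fold change -1.16; limma, adjusted p = 0.00682), a call that was lost with replicates 1 and 3 averaged (limma, adjusted p = 0.0889). Of 11 measured mesodermal targets 7 were higher (63.6%, beside 19.7% of all genes tested) and none was lower. Foxf1, a forkhead factor of splanchnic mesoderm, stood at 915, 989 and 882 in GFP+ and 263, 170 and 238 in Tomato+ cells (log2 fold change 2.07; limma, adjusted p = 0.000149). Mycn, a growth regulator, stood at 1031 to 1235 in GFP+ and 436 to 537 in Tomato+ cells (log2 fold change 1.21; limma, adjusted p = 0.000427). Foxf1 and Osr1, another of the higher targets, are also on the SHF list, all of whose measured genes were higher in GFP+ cells. The study names Foxf1, Osr1 and Bmp4, also among the 7, for the GFP+ population from these data. Since the list was chosen with earlier results known, its count is a description and not independent evidence on the pathway. Of 5 measured ventral neural targets 2 were higher (40%), Olig2 and Foxa2, and none was lower. Foxa2 is also on the endoderm list. Olig2, a factor of motor neuron progenitors, stood at 214, 202 and 187 in GFP+ cells and at 9.10, 65.1 and 6.47 in Tomato+ cells (log2 fold change 3.56; limma, adjusted p = 0.00811). It was highest in GFP- cells at 285, and Tomato+ replicate 2 was again above its group.

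**Figure D5:**
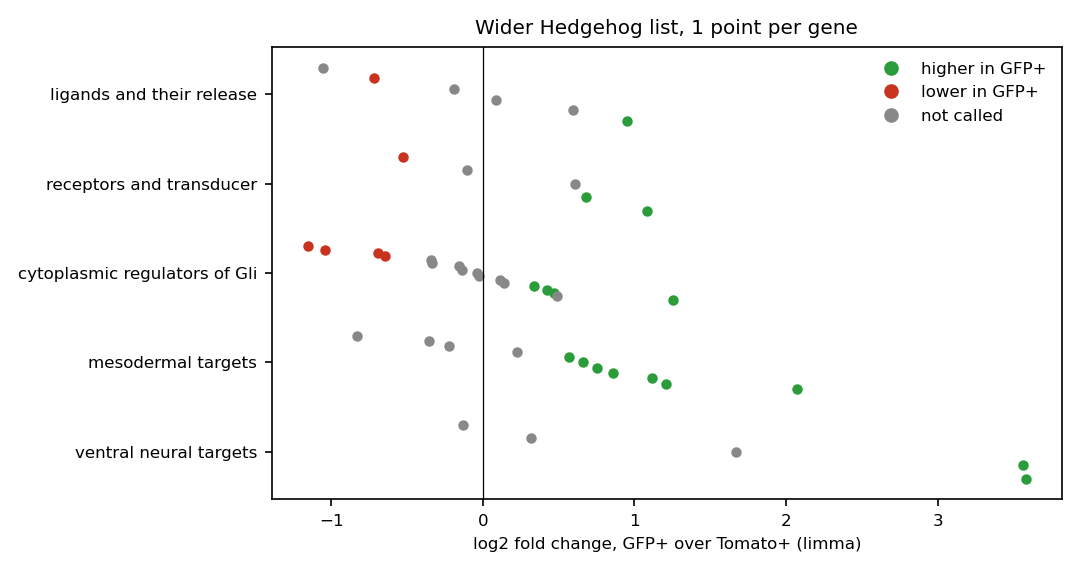
Log2 fold change of GFP+ over Tomato+ cells (horizontal axis, limma) for 44 other Hedgehog genes in 5 classes (vertical axis), with 1 point per gene coloured by its call. Of 11 mesodermal targets 7 are higher and none is lower. The 17 cytoplasmic regulators hold 4 of each (23.5%), near the 19.7% higher and 20% lower of all genes tested.

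Finally, the genes most like each member across all 8 libraries were listed by Pearson's r of log2 values among genes with a mean of at least 100. Libraries share lines and include near copies, so r is given as a description. Shh was most like Skiv2l2 (r = 0.996), Tbl1x and Gata4, then Ccnt1, Dcp2 and Golph3 (r = 0.992). Ptch1 was most like Ttn (r = 0.998), Polr2m and Rab5c. Ttn encodes the sarcomere protein titin, and the summed level of the cardiomyocyte markers, which include it, was 30570 to 35533 in GFP+, 4238 to 4794 in Tomato+, 17189 in GFP- and 2990 in Tomato- cells, an order of groups that Ptch1 shared. The part of cardiomyocytes in the Ptch1 level was not tested. Hhip was most like Itga3 (r = 0.989), Rarb and Cd36, and Gli1 was most like Ctdnep1 (r = 0.992), Chchd1 and Bsdc1. Gli2 was most like Btbd7 (r = 0.980), Tmem252 and Nrp2, and Gli3 was most like Sin3a (r = 0.996), Nfatc3 and Bub1b. Boc was most like Vim (r = 0.998), Zeb2 and Hemgn. Cdon was most like Aptx (r = 0.993), Acadl and Adamtsl4, and Gas1 was most like Fnbp4 (r = 0.986), Xiap and Sema3d.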

How the data were processed

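The sorted cells and their groups were taken from the labels. By the labels, RNA (2 ng) was amplified with a kit that keeps no strand. The submitters' processing notes name bcl2fastq 2.17.1.14, STAR 2.5.2, HTSeq and DESeq2. One methods paragraph of the paper names other tools (RSEM, edgeR) with an Ensembl gene build, and the labels were followed. Whether that build also underlies the deposited counts is not given in the sources used here. The deposited table holds a signal per library, which the authors made by dividing read counts by size factors. Its log2, score and p-value columns, which the authors took from their own comparison, were not used. Multiplying by 1 factor per library gave whole reads for 100.0% of values (within 0.01).

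GFP+ and Tomato+ libraries entered a limma 3.58.1 fit (R 4.3.3, trended prior, two-sided) of log2(normalized reads + 1). Genes averaging under 10 were left out (149), and 16153 remained. P-values were adjusted by Benjamini-Hochberg and called at 0.05. Folds are on that scale and understate changes of low genes. edgeR 4.0.16, DESeq2 1.42.0, other pseudocounts, filters and scalings, and left-out libraries were alternatives. Coordinates and exon lengths came from GENCODE M21 (GRCm38), which 96.7% of symbols matched.

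The members and lists were chosen with earlier results of these data known. Named beyond the 9 members were, for each class of the wider list, the 2 called genes of largest fold that averaged 100 or more in the higher group without overlap, and for each member the 3 genes (6 for Shh) with the highest correlation. Symbols of the Gm and Rik kind were left out of these. Other genes are named as cell markers, as overlapping genes or as said in the text. The fit was tested on simulated data. Simulated libraries were independent of one another, so that test does not cover the near copies among the replicates.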

Additional observations from a re-analysis of the deposited data

Results flagged for a closer look

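In some Hedgehog genes every library of GFP+ cells lay on one side of GFP- cells and every library of Tomato+ cells on the opposite side of Tomato- cells. This held for 1 of the 9 members and for 15 of the 44 genes of the wider list, 3 of which are named in the text. No least size was required, and the share among all genes was not counted. The counts therefore do not set Hedgehog genes apart from other genes. Values are given for the named genes alone, and the other 12 were only counted. The values are log2 differences of positive over negative cells. For Shh they were 2.11 in the GFP line and -0.64 in the Tomato line, a gap of 2.75. For Olig2 they were -0.50 and 2.77, a gap of -3.27, with the Tomato- library at only 1.51 normalized reads. For Scube2 they were -0.51 and 0.39, a gap of -0.90. For Scube1 they were -0.04 and 0.19, a gap of -0.23. The difference was not tested for any of them, since each line had 1 negative library.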

How the results depend on the processing

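Each log2 fold change of the 9 members kept its direction in all 17 alternatives, and Shh, Ptch1, Hhip, Boc and Gas1 stayed called in each. With replicates 1 and 3 averaged, the genes called over the whole table went from 6410 to 2930 (1437 higher, 1493 lower) and those of the wider list from 22 to 14, Gli1 went to 0.80 (limma, adjusted p = 0.104), Cdon to -0.45 (adjusted p = 0.0566) and the ratio of Gli1 to Ptch1 to -0.076. The replicate block left Gli1 at 1.02 (limma, adjusted p = 0.0585) and changed no other call of a member. To see whether replicate numbers pair the samples, log2 values of each library were taken as deviations from the mean of its own group. Between GFP+ and Tomato+ libraries of the same number these deviations correlated at only 0.010 to 0.017, and between other pairs at -0.015 to 0.011. The deviations of every library correlated best with those of its own number, except for Tomato+ replicate 3 (0.0110 with GFP+ replicate 1 against 0.0101). Correlations this small do not show whether replicate numbers pair the samples. DESeq2 called Gli3 (0.22, adjusted p = 0.0405). With single libraries left out, Gli1 ranged from 0.84 to 1.34, the ratio of Gli1 to Ptch1 from -0.051 to 0.43 and the genes called from 4311 to 7901. A 3-fold limit against the negative cells left 1 member, Shh, in the GFP line and 0 in the Tomato line. edgeR on the recovered reads called 6239 genes. TMM shifted the median by -0.00055. Near copies may leave the spread of each group resting on few independent libraries, and the single negative libraries allow no test.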
